A study of Homo sapiens with 4 samples.

Results

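The genes described here are TNF, a group of NF-kB subunits and a set of textbook feedback and target genes of that pathway, in CAL-27 cells made resistant to cisplatin and in the line they came from. The list held 10 genes: TNF, NFKB1, NFKB2, RELB, NFKBIA, TNFAIP3, BIRC3, TNFAIP2, ICAM1 and SOD2. Members were found by symbol. The platform annotation named 8 of them, BIRC3 was named through the RefSeq accessions of its rows, and no row was named NFKBIA, which is therefore not analysed here. The 9 measured members, on 11 rows, were part of 15073 named genes and 42152 rows.

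CAL-27 is an established human cell line from a squamous cell carcinoma of the tongue. The cisplatin-resistant group was grown from it under stepwise increases of cisplatin, a platinum drug that crosslinks DNA, between 1e-07 M and 1e-05 M; the parental group was not selected. Each group held 2 arrays, called biological replicates by the submitters, of total RNA on a 1-colour NimbleGen platform. Whether the resistant cells are 1 clone, and whether drug was present at harvest, was not given in the sources used here. All values are RNA levels in bulk cultures, so fewer cells of a type and less RNA per cell cannot be told apart.

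NF-kB transcription factors are dimers of Rel-family proteins that wait in the cytoplasm, bound to inhibitors of the IkB family. The cytokine TNF binds its receptors, a receptor-bound complex of TRAF, RIPK1 and cIAP proteins activates the IkB kinases, the inhibitor is degraded, and the dimer enters the nucleus. There it binds kB sites and switches on inflammatory genes together with genes that shut the pathway down, among them NFKBIA, which encodes the inhibitor IkB-alpha, and TNFAIP3, which encodes the ubiquitin-editing enzyme A20. Much of this regulation acts on proteins, which an RNA array does not measure.

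The promoters bear on these genes because kB sites are the sequences the subunits bind. RefSeq promoter windows (GRCh38.p14, 250 bases before to 50 after an annotated start, 300 bases each) were matched for 9 of the 10 listed genes, giving 15 windows; RELB had none. The kB consensus, a 10-letter motif searched on both strands, was found in 6 of these windows, belonging to 5 genes: NFKB1, NFKB2, NFKBIA, TNFAIP3 and BIRC3. Across all 35116 windows of the table, 5.91% held it. Windows of 4 genes are printed 5′ to 3′ on the gene's strand, with matches to the consensus in capitals: TNFAIP3 and BIRC3, whose RNA was higher in resistant cells, and the subunit genes NFKB1 and NFKB2, whose RNA did not pass the test. They are TNFAIP3 chr6:137867009-137867308 (plus strand), BIRC3 chr11:102317234-102317533 (plus strand), NFKB1 chr4:102501109-102501408 (plus strand) and NFKB2 chr10:102394328-102394627 (plus strand).
TNFAIP3: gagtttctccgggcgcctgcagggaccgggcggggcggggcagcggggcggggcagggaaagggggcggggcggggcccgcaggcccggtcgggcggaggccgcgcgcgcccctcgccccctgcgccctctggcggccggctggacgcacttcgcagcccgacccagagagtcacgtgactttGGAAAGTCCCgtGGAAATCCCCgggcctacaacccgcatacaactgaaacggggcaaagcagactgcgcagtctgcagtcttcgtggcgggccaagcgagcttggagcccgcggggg
BIRC3: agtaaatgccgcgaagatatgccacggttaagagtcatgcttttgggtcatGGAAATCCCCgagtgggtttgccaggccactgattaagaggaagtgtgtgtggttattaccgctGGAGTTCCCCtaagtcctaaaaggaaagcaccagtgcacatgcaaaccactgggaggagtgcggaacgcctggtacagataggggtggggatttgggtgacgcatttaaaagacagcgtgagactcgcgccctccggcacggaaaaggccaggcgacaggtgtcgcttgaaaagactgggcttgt
NFKB1: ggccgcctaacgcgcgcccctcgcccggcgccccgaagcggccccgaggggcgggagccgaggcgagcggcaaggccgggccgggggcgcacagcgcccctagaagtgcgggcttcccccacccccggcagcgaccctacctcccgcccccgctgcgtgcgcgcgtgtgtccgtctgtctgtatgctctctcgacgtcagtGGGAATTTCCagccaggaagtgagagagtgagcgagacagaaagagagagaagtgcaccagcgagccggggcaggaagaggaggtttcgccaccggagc
NFKB2: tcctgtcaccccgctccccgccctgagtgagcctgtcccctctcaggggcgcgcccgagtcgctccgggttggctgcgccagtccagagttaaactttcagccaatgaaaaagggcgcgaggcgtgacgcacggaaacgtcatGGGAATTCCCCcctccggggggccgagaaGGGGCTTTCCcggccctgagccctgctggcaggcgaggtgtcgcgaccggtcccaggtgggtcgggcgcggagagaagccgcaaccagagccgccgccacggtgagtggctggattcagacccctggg

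In the TNFAIP3 window the matches began 67 and 55 bases upstream of the annotated start, and in the BIRC3 window 199 and 135 bases upstream. The NFKB1 match began 49 bases upstream. The NFKB2 window held matches that began 107, 106 and 78 bases upstream, the first pair overlapping each other. A shorter 9-letter motif, GGAAATTCC, was chosen after the sequences had been seen. On both strands it matched 0.461% of all windows, and among the members it lay inside the consensus matches of NFKB1 and NFKBIA and, alone, 186 bases upstream of the ICAM1 start. The windows of TNF, TNFAIP2 and SOD2 held neither motif. This says only that these letters are absent from these 300 bases, since sites also lie outside such windows. The map of motif matches shows them by distance from the start.

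**Figure D1:**
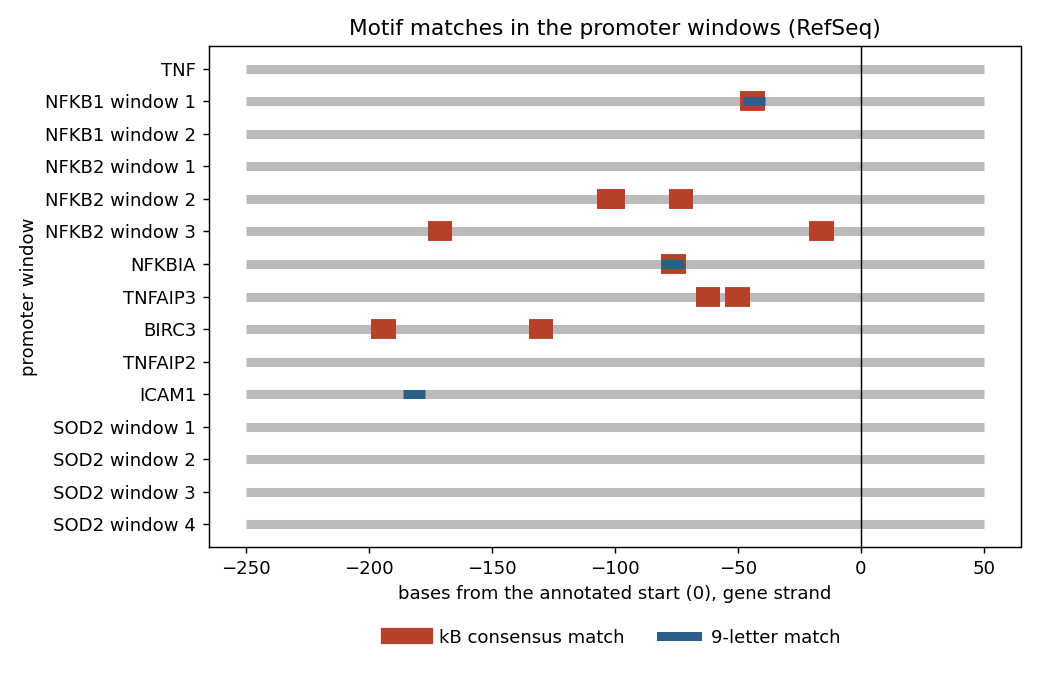
Matches to the kB consensus (red) and to the 9-letter motif (blue) in 15 RefSeq promoter windows of 9 listed genes, by distance in bases from the annotated start (0) along the gene's strand. Matches lie upstream of the start in NFKB1, NFKB2, NFKBIA, TNFAIP3, BIRC3 and ICAM1, and none is drawn for TNF, TNFAIP2 or SOD2.

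In the resistant cells, TNF, TNFAIP3, BIRC3, ICAM1 and SOD2 rose, by 12.5-fold, 2.73-fold, 5.54-fold, 4.97-fold and 2.74-fold. NFKB1, NFKB2 and RELB, the measured subunit genes of the list, did not pass, at 1.15-fold, 1.54-fold and 0.894-fold, and neither did TNFAIP2 at 1.98-fold. Thus 5 of 9 measured members were called higher and 0 lower, where the same test called 3.26% of all genes higher and 2.83% lower. The median log2 difference, resistant minus parental, was 1.45 over the members and -0.03 over all genes. These calls come from limma's moderated test on 1 row per gene, adjusted by Benjamini-Hochberg over all 15073 genes at 0.05. Adjusted over all 42152 rows instead, 0 rows of the table passed (0%, with 18.7% at an unadjusted p under 0.05), and the smallest adjusted p among the members' rows was 0.0606.

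Each further value is a log2 difference with limma's moderated standard error (n = 2 arrays per group), unless it is called an intensity. Intensities are the deposited normalized values on a linear scale, and those of different genes come from different probes and have no order among them. The resistant arrays lay above both parental arrays for 8 of the 9 members and below them for 1, RELB, while 27.9% of all genes were above and 31% below in this sense. A second fit let limma's prior variance follow intensity and is called the trended prior. It called 7 of 9 members higher and 0 lower, against 9.93% of all genes higher and 11.5% lower. Leaving out any 1 of the 4 arrays ended all 5 calls in the first fit, which then called 0 of all genes, while with the trended prior 6 to 7 members were called without resistant replicate 1, resistant replicate 2, parental replicate 1 or parental replicate 2.

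**Figure D2:**
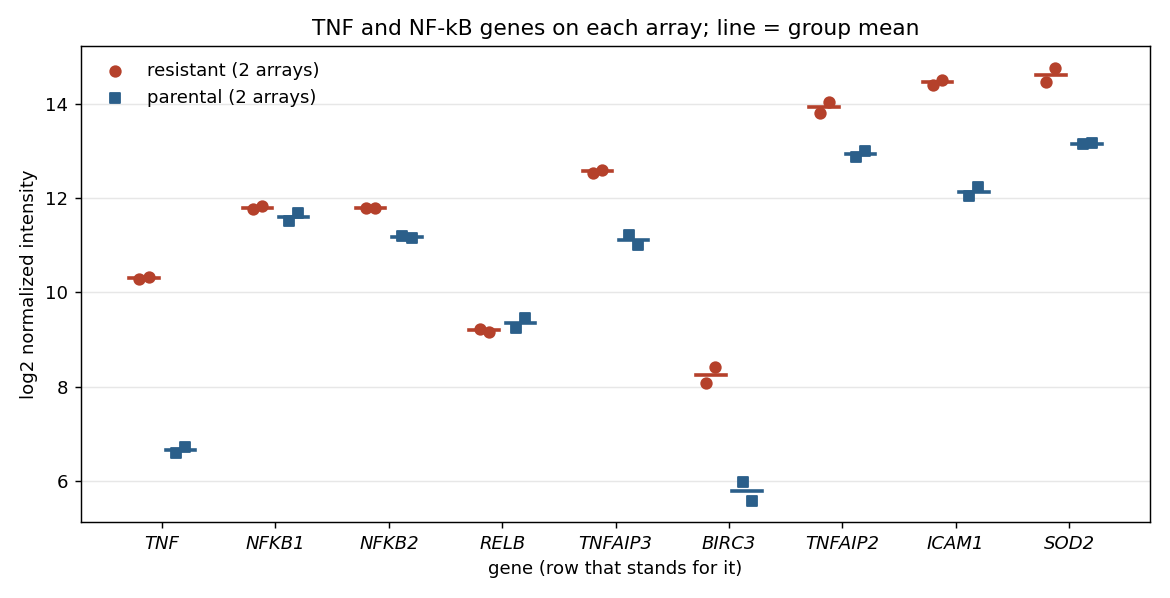
Log2 normalized intensity of the 9 measured members on each of the 4 arrays, resistant (red circles) left of parental (blue squares), with a line at each group's mean. The groups stand farthest apart for TNF and lie close together for NFKB1 and RELB; heights of different genes come from different probes and are not comparable.

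TNF, the founding cytokine of its superfamily and the ligand of this pathway, gave intensities of 1242 and 1280 in resistant cells, against 97.2 and 104.9 in parental cells. Both parental values lay under the median intensity of an array, which ranged between 141.2 and 149.9, so the fold is nominal. The groups were far apart and the arrays of each group nearly equal. The difference was 3.64 ± 0.18 (adjusted p = 0.0165 by limma over genes, and 4.2e-05 with the trended prior). TNF ranked 40 of 15073 genes by the size of its rise. With 50 added to every intensity, which weighs dim values less, the difference was 3.12.

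Macrophages are the textbook source of TNF, so markers of leukocytes are given beside it. Of 19 listed markers 16 were measured, and 0 passed limma's test in either direction. The same test called 3.26% of all genes higher and 2.83% lower, so 0 of 16 is near that share. At an unadjusted p under 0.05, 1 marker was higher and 1 lower. With the trended prior 1 was higher, against 9.93% of all genes higher and 11.5% lower. The summed intensity of the 16 markers was 5895 and 5410 in resistant cells, against 6091 and 5125 in parental cells. CD68 made up much of it, at 2627 and 2611 in resistant cells, against 3193 and 2942 in parental cells. LCP1 followed, at 1210 and 1130 in resistant cells, against 544.3 and 430.2 in parental cells. These differ in opposite directions, so the sum says little about the dimmer markers. PTPRC, which encodes the leukocyte surface protein CD45, had intensities of 65.5 and 20.4 in resistant cells and 38.9 and 25.3 in parental cells, and its second row differed by 2.10 (adjusted p = 0.444 over rows). LCP1, an actin-bundling protein of leukocytes that carcinomas can also express, differed by 1.27 ± 0.22 (adjusted p = 0.058). No marker was listed at 0, since the normalized values have no zeros.

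The genes whose 4-array profile, centred on the gene's mean, lay closest to that of TNF were IL6, LMO2 and SPARC. IL6, an inflammatory cytokine, was at a Euclidean distance of 0.0288 log2 units, LMO2, a transcriptional adaptor of blood-forming cells, at 0.103, and SPARC, a matrix glycoprotein, at 0.129. With 4 arrays such a distance mostly reflects a rise of similar size. Among the members BIRC3 lay nearest to TNF, at 1.24, followed by ICAM1 at 1.33 (places 150 and 172 of all genes), and RELB lay farthest, at 3.81.

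TNF lies in the class III region of the major histocompatibility complex between the lymphotoxin genes LTA and LTB, whose products are its closest relatives. LTB, the membrane-bound lymphotoxin, rose by 2.21 ± 0.30 (adjusted p = 0.0423), with intensities of 823.1 and 679.4 in resistant cells, against 130 and 200.5 in parental cells. Its second row differed by 2.17 (adjusted p = 0.173 by limma over rows). With the mean of its rows in the fit over genes, LTB missed the threshold (adjusted p = 0.0594 by limma). LTA gave intensities of 107.2 and 272.2 in resistant cells, against 68.4 and 35.6 in parental cells. The groups did not overlap, but the resistant arrays were far apart, and the difference of 1.79 ± 0.61 did not pass (adjusted p = 0.166). Of the 11 listed neighbours of TNF, LTB was the single gene that passed, while the trended prior called 2 higher and 0 lower. Over all genes the first fit called 3.26% higher and 2.83% lower, and the trended prior 9.93% and 11.5%. ATP6V1G2, a subunit gene of the vacuolar proton pump, differed by 1.20 ± 0.63 (adjusted p = 0.306). It was dim on every array, at intensities of 67.6 and 20.9 in resistant cells, against 16.3 and 16.4 in parental cells. Most of that difference came from resistant replicate 1. NFKBIL1 differed by 0.50 ± 0.18 (adjusted p = 0.180, and 0.0242 with the trended prior) and by 0.05 in its second row.

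Among 13 measured ligand genes of the TNF superfamily, the lymphotoxins included, 4 rose, 0 fell and 9 did not pass, with a median difference of 1.14; the trended prior called 6 higher and 0 lower. Besides LTB they were EDA, which encodes ectodysplasin, a ligand of skin appendage development (2.47 ± 0.27), TNFSF15 (2.20 ± 0.20) and TNFSF14, which encodes LIGHT (1.85 ± 0.25). The rows of EDA ranged between 1.15 and 2.47. EDA and TNFSF15 were dim in parental cells, at intensities of 71.6 and 105.2 for EDA and 90.2 and 77.1 for TNFSF15. Their sizes are therefore nominal. Of 21 measured receptor genes, 2 rose, 0 fell and 19 did not pass, with a median of 0.03, and the trended prior called 2 higher and 2 lower. Over all genes the first fit called 3.26% higher and 2.83% lower, and the trended prior 9.93% and 11.5%. The receptor counts with the trended prior are near that share. TNFRSF10C, a decoy receptor for TRAIL, rose by 1.94 ± 0.22, and TNFRSF11B, which encodes the decoy receptor osteoprotegerin, by 1.55 ± 0.18. Both were dim in parental cells, at intensities of 20.6 and 16.1 for TNFRSF10C and at 39.4 and 39.2 for TNFRSF11B, and neither passed with the trended prior (adjusted p = 0.0504 and 0.0648).

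TNFRSF1A, the broadly expressed TNF receptor, gave intensities of 1498 and 1376 in resistant cells, against 1722 and 1694 in parental cells. Its difference of -0.25 ± 0.18 did not pass (adjusted p = 0.439). No row was named TNFRSF1B. TNFRSF9, a co-stimulatory receptor, differed by 2.56 ± 0.53 (adjusted p = 0.0759, and 0.018 with the trended prior), and CD40 by 0.85 ± 0.23 (adjusted p = 0.114, and 0.0422 with the trended prior).

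The 24 measured genes of receptor-proximal signalling had a median difference of 0.00; 1 rose, 0 fell and 23 did not pass. With the trended prior 4 were higher and 4 lower, against 9.93% and 11.5% of all genes. The first fit called 3.26% of all genes higher and 2.83% lower. The gene that rose in the first fit was TRAF1, an adaptor that is itself a textbook NF-kB target. It gave intensities of 1980 and 2062 in resistant cells, against 183 and 146.4 in parental cells, a difference of 3.63 ± 0.21 (adjusted p = 0.0165). FADD, the death-domain adaptor that recruits caspase-8, differed by -0.92 ± 0.18 (adjusted p = 0.0722), and SHARPIN, a subunit of the linear ubiquitin ligase, by -0.84 ± 0.21 (adjusted p = 0.101). CYLD, a deubiquitinase that restrains the pathway, differed by 0.93 ± 0.18 (adjusted p = 0.0704). With the trended prior FADD and SHARPIN were lower (adjusted p = 0.00288 and 0.00461) and CYLD was higher (adjusted p = 0.0297). CHUK, which encodes IkB kinase alpha, differed by -0.73 ± 0.25 (adjusted p = 0.163), and the other IkB kinase subunits IKBKB and IKBKG had no named row.

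None of the 3 measured subunit genes of the list passed over genes, and NFKB2 was called higher with the trended prior. NFKB1, which encodes p105 and its processed form p50, gave intensities of 3493 and 3642 in resistant cells, against 2909 and 3305 in parental cells. Both resistant arrays lay above both parental ones, yet the difference was about as large as its error, at 0.20 ± 0.19 (95% interval -0.33 to 0.73, adjusted p = 0.544). NFKB2, which encodes p100 and its processed form p52 of the non-canonical pathway, gave intensities of 3556 and 3554 in resistant cells, against 2338 and 2285 in parental cells. Its arrays agreed closely within each group and the groups did not overlap. The difference of 0.62 ± 0.18 (95% interval 0.13 to 1.11, not adjusted over genes) did not pass over genes (adjusted p = 0.124) and was called with the trended prior (adjusted p = 0.0101).

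RELB, the partner of p52, gave intensities of 598.2 and 571.6 in resistant cells, against 606.8 and 705.8 in parental cells. The groups nearly touched, and the difference was -0.16 ± 0.19 (95% interval -0.70 to 0.38, adjusted p = 0.636). The remaining Rel genes, which are no members, did not pass either. RELA, which encodes p65, differed by -0.03 ± 0.18 (adjusted p = 0.937) and REL by -0.29 ± 0.21 (adjusted p = 0.434). The intervals of NFKB1 and RELB allow differences of up to 0.73 and down to -0.70.

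Of the feedback inhibitors, TNFAIP3 gave intensities of 5942 and 6168 in resistant cells, against 2393 and 2052 in parental cells. The groups were separated by more than the gap between arrays of either group. The rise was 1.45 ± 0.19 (adjusted p = 0.041 over genes, 0.12 over rows and 0.000213 with the trended prior). Its 95% interval was 0.91 to 1.99, and no difference between members was tested.

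A20 works with the TNIP adaptor proteins, and the list of other Rel subunits and inhibitors held 13 measured genes, of which 2 rose, 0 fell and 11 did not pass (median 0.41; 5 higher and 2 lower with the trended prior). Over all genes the first fit called 3.26% higher and 2.83% lower, and the trended prior 9.93% and 11.5%. TNIP3, an A20-binding inhibitor, rose by 3.68 ± 0.34 (adjusted p = 0.0251), with intensities of 273.5 and 424.3 in resistant cells, against 31.9 and 22.1 in parental cells. Its second row differed by 2.81. The parental values of TNIP3 were dim, so its size is nominal. With 50 added to every intensity the TNIP3 difference was 2.35. ZC3H12A, which encodes the RNase regnase-1 that degrades cytokine mRNAs, rose by 1.29 ± 0.18 (adjusted p = 0.0427). NFKBIZ, an atypical nuclear IkB protein, differed by 1.23 ± 0.24 (adjusted p = 0.0714, and 0.0131 with the trended prior) and by 1.67 in its second row. TNIP2, another A20-binding protein, differed by 0.68 ± 0.22 (adjusted p = 0.147).

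BIRC3, which encodes cIAP2, a ubiquitin ligase of the receptor complex and an inhibitor of apoptosis, gave intensities of 269.9 and 339.9 in resistant cells, against 62.5 and 47.8 in parental cells. The parental arrays were dim and the groups did not overlap. The rise was 2.47 ± 0.25 (adjusted p = 0.0289 over genes, 0.084 over rows and 0.00464 with the trended prior). Its second row, for another transcript, gave intensities of 203.9 and 249.5 in resistant cells, against 31.8 and 48.9 in parental cells, a difference of 2.52 ± 0.34. With 50 added to every intensity the BIRC3 difference was 1.75, and without resistant replicate 2 it missed the threshold even with the trended prior (adjusted p = 0.0803). BIRC2, its close paralogue that encodes cIAP1, differed by 0.38 ± 0.18 (adjusted p = 0.260).

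**Figure D3:**
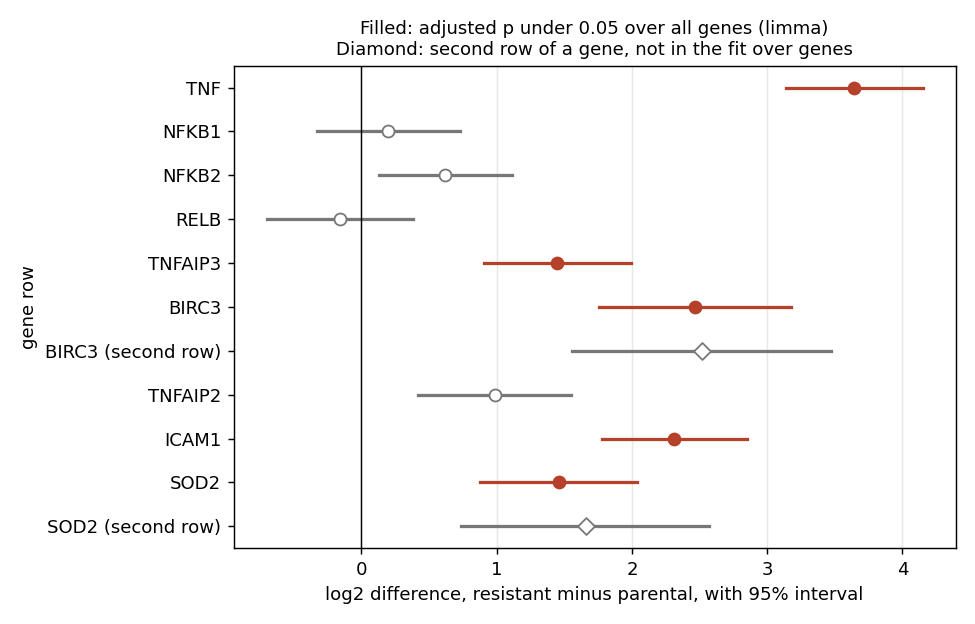
Log2 difference, resistant minus parental, with its 95% interval for the 11 rows of the 9 measured members; filled circles passed limma's test over genes and diamonds are second rows, which were not in that fit. TNF stands at 3.64, BIRC3 at 2.47 and ICAM1 at 2.31, while the intervals of NFKB1 and RELB include 0.

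ICAM1, the adhesion receptor for leukocyte integrins and a textbook target of NF-kB, gave intensities of 21712 and 23100 in resistant cells, against 4204 and 4826 in parental cells. It was bright in both groups and the groups were well separated. The rise was 2.31 ± 0.19 (adjusted p = 0.0216 over genes, 0.0763 over rows and 1.6e-05 with the trended prior). SOD2, the mitochondrial manganese superoxide dismutase, gave intensities of 22504 and 27867 in resistant cells, against 9028 and 9224 in parental cells. Here the parental arrays agreed more closely than the resistant ones. The rise was 1.46 ± 0.21 (adjusted p = 0.0456), and the second row of SOD2, with intensities of 8946 and 13790 in resistant cells, against 3441 and 3609 in parental cells, differed by 1.66 ± 0.32.

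Annotated gene bodies of WTAP and ACAT2 overlap that of SOD2, and the labelling does not keep strand. WTAP, a subunit gene of the mRNA methylation complex, differed by 0.23 ± 0.21 (adjusted p = 0.534) and ACAT2, an acetyl-CoA acetyltransferase, by -0.79 ± 0.22 (adjusted p = 0.121). SOD2 also overlaps the long non-coding RNA SOD2-OT1 and the pseudogenes HNRNPH1P1 and RNU4ATAC18P, and NFKB1, TNFAIP3, TNFAIP2 and ICAM1 overlap annotated long non-coding RNAs; none of these has a named row here.

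TNFAIP2, a TNF-induced gene whose product takes part in membrane nanotube formation, gave intensities of 14311 and 16991 in resistant cells, against 7530 and 8231 in parental cells. The groups did not overlap. The difference of 0.99 ± 0.20 did not pass over genes (adjusted p = 0.0757). It was called with the trended prior (adjusted p = 0.00171).

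Family relatives of the members were compared in the same fit. Of 12 measured relatives, 0 rose, 0 fell and 12 did not pass limma's test over genes, with a median of 0.32. The same test called 3.26% of all genes higher and 2.83% lower, so 0 of 12 is near that share. With the trended prior 1 relative was higher, against 9.93% of all genes higher and 11.5% lower. ICAM2, an adhesion receptor mostly of endothelium and leukocytes, differed by 1.60 ± 0.30 (adjusted p = 0.0669, and 0.00993 with the trended prior). ICAM4 and ICAM5, which neighbour ICAM1, differed by 0.52 ± 0.19 (adjusted p = 0.190) and 0.85 ± 0.41 (adjusted p = 0.273), and TNFAIP8L3 by -0.71 ± 0.24 (adjusted p = 0.160). At an unadjusted p under 0.05, 1 of the relatives was higher and 1 lower.

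Of 34 measured genes that are other textbook targets of the pathway, 17 rose, 1 fell and 16 did not pass, with a median difference of 1.15. The trended prior called 21 higher and 2 lower. Over all genes the first fit called 3.26% higher and 2.83% lower, and the trended prior 9.93% and 11.5%. The list was drawn up with earlier results of these data known. By the smallest p, LCN2, which encodes the siderophore-binding protein lipocalin-2, gave intensities of 30983 and 34253 in resistant cells, against 1950 and 2153 in parental cells. CXCL8, a neutrophil chemokine, gave intensities of 1346 and 1512 in resistant cells, against 94.1 and 83.9 in parental cells. Those parental values lay under the array median, so the fold of CXCL8 is nominal. IL6 gave intensities of 5631 and 5918 in resistant cells, against 441.8 and 486.3 in parental cells. All 3 were several-fold brighter on both resistant arrays, and IL32, a proinflammatory cytokine, differed by 2.97 ± 0.19 in its brightest row and by up to 3.71 in its others. S100A9, a calgranulin subunit, was the single gene of this list that fell in the first fit (-1.34 ± 0.20, adjusted p = 0.0492). It gave intensities of 7235 and 8360 in resistant cells, against 20996 and 18415 in parental cells.

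**Figure D4:**
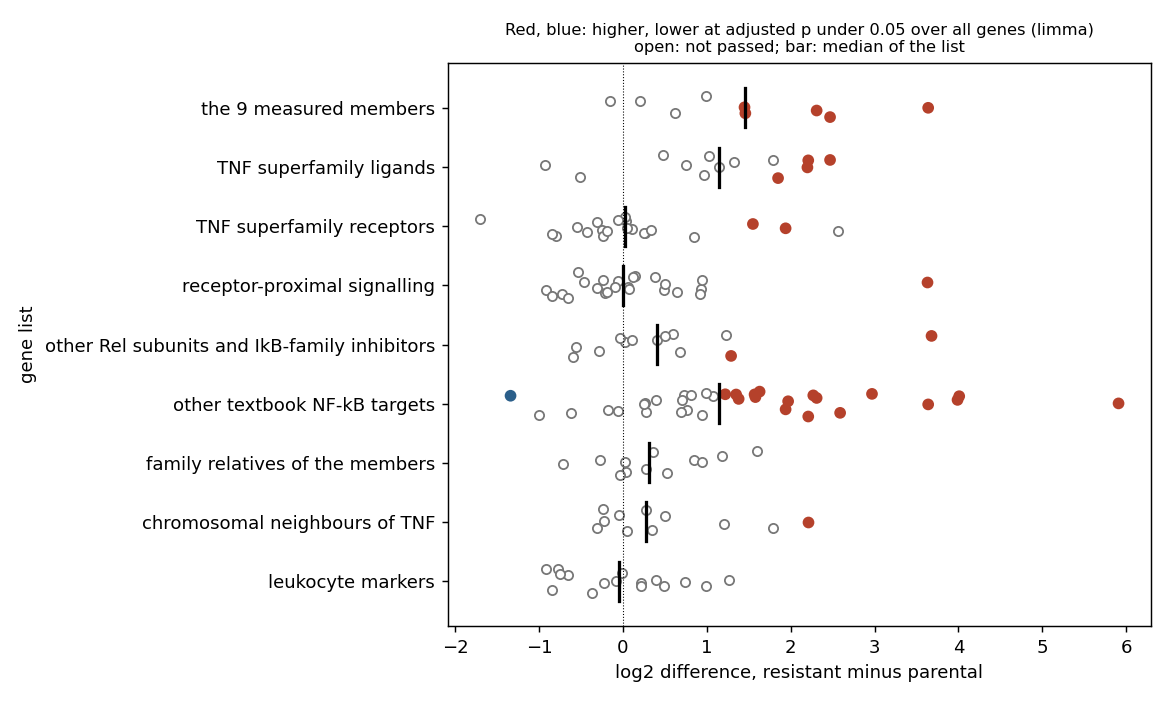
Log2 difference, resistant minus parental, of each measured gene in the member list, 7 pathway lists and the leukocyte markers, with a bar at each list's median. Filled points passed limma's test over all genes (red higher, blue lower) and lie mostly among the members, ligands and other targets, while receptors and receptor-proximal genes centre near 0.

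Over all 7 lists, 125 of 143 listed genes were measured, of which 26 rose and 1 fell. That is 20.8% and 0.8%, against 3.26% and 2.83% of all genes, but the lists were chosen with earlier results of these data known. Of the 26 that rose, 17 were on the list of textbook targets. Among the 91 measured genes of the other lists 9 rose (9.89%) and 0 fell, with a median difference of 0.11. Those that rose include TRAF1, itself a textbook target. The trended prior called 39 of the 125 higher and 10 lower, and 18 and 8 of the 91. It called 9.93% of all genes higher and 11.5% lower. Markers of squamous epithelium moved in these same arrays. Of 10 measured, 5 fell and 0 rose, while the trended prior called 7 lower and 2 higher. KRT14, a basal keratin, gave intensities of 529.6 and 601.3 in resistant cells, against 43330 and 44118 in parental cells. The others that fell were KRT6A, a keratin with close paralogues that may share its probes (-6.91 ± 0.26, adjusted p = 0.0165), the desmosome genes PKP1 (-6.52 ± 0.22, adjusted p = 0.0165) and DSG3 (-3.75 ± 0.28, adjusted p = 0.0188), and TP63, a transcription factor of squamous cells (-2.77 ± 0.24, adjusted p = 0.0221). KRT5 differed by -0.44 ± 0.19 (adjusted p = 0.236). The epithelial adhesion genes CDH1 and EPCAM differed by 0.76 ± 0.18 and 0.91 ± 0.20 and were called higher with the trended prior (adjusted p = 0.00347 and 0.00219). Fibroblast markers had 1 of 7 higher, COL1A1 (3.23 ± 0.26), and 1 lower, PDPN (-2.69 ± 0.41). Endothelial markers had 1 of 6 higher, CDH5 (5.02 ± 0.34), and 0 lower. CDH5 was dim in parental cells, at intensities of 14.3 and 24.7, so its size is nominal. The part of such differences in cell state in the values above was not tested.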

How the data were processed

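RNA of cisplatin-resistant and parental CAL-27 cells was measured on 1-colour arrays, 2 per group. The deposited intensity values are linear and normalized, lowest 8.79 and highest 65071.2. RMA is the tool named in the submitters' processing notes. Its version, any row filter and the genome build are not given in the sources used here. Detection calls were not used, so dim folds are nominal. Per the labels' protocols both cDNA strands carry dye, so overlapping genes cannot be told apart.

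The log2 of each intensity was used without rescaling. Symbols came from the platform annotation (17899 rows) or through RefSeq accessions (674 rows); 0 rows had several symbols and 23579 had no name. The row with the highest mean stood for a gene. The test was that of limma 3.58.1 (R 4.3.3) with a constant prior variance and without covariates, adjusted by Benjamini-Hochberg at 0.05. The number of arrays limits the precision. Each moderated standard error combines the spread between a gene's arrays of the same group with a prior variance drawn from all features of the fit. A gene whose arrays agree closely, such as NFKB2, therefore keeps an error set mainly by that prior. Whether the resistant arrays come from separate selections is not known here. The code was tested on simulated data with 200 changed genes. Tables used pandas 2.3.3 in Python 3.11.15.

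The members, gene lists, tests and alternatives were chosen with earlier results of these data known. Named genes were all members, up to 4 per list by the smallest p, fixed receptors, subunits and kinases where measured, the 3 genes nearest TNF and, for promoters, at most 4 members with a match. The targets and the ligand TNFSF13 among the other observations do not come from this rule and were picked with their values in view. The same holds for the markers LCP1, PTPRC, KRT5, KRT14, KRT6A, PKP1, DSG3, TP63, CDH1, EPCAM, COL1A1, PDPN and CDH5. It also holds for BIRC2, S100A9, WTAP and ACAT2.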

Additional observations from a re-analysis of the deposited data

How the results depend on the processing

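Directions of all 9 measured members held in every alternative run: TNF lay between 3.12 and 3.70, BIRC3 between 1.75 and 2.66, ICAM1 between 2.21 and 2.41, SOD2 between 1.30 and 1.61, TNFAIP3 between 1.34 and 1.56, TNFAIP2 between 0.86 and 1.11, NFKB2 between 0.55 and 0.66, NFKB1 between 0.11 and 0.29 and RELB between -0.27 and -0.05. Calls depended on the variance model. Adjusted over all rows, 0 members and 0 pathway genes passed, against 5 and 27 over genes. Without any 1 array, the test left 1 group with a lone array, assumed to vary like the other group, and called 0 genes, rows, members and pathway genes. With the trended prior as well, and leaving out resistant replicate 1, resistant replicate 2, parental replicate 1 and parental replicate 2 in this order, it called 1899, 1970, 2797 and 2404 genes and 1544, 1563, 3541 and 2650 rows, and between 6 and 7 members and between 34 and 40 pathway genes. The trended prior on all arrays called 3234 genes and 3960 rows, against 919 and 0, and 49 pathway genes. Adding 50 to each intensity gave 2106 genes and 1625 rows, and keeping rows with a mean log2 of at least 7, which tests fewer features, 2736 and 3407. Median centring turned the balance over all genes (458 higher and 507 lower, against 492 and 427), and the called members were 5 in that setting and with quantile normalization.

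The arrays share replicate numbers, but nothing in the labels pairs them; same-numbered deviations from the group means correlated at r = 0.142 over genes. Under a replicate block (1 residual degree of freedom) limma called 0 genes, 0 rows, 0 members and 0 pathway genes. The replicate block with the trended prior called 3500 genes, 4884 rows, 7 members and 50 pathway genes. Why the calls moved was not tested beyond these values. Low signal limits TNF and BIRC3, whose parental values lay under the array median.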

Other observations

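Beyond the targets named above, a further set of textbook NF-kB targets rose in the resistant cells by limma's test over genes. CSF2, which encodes the growth factor GM-CSF, had the largest difference of all listed pathway genes, 5.91 ± 0.42 (adjusted p = 0.0173), with intensities of 3232 and 3100 in resistant cells, against 75.6 and 36.5 in parental cells. As the parental values were dim, this size is nominal. LIF, a cytokine of the IL6 family, rose by 2.31 ± 0.23, KLF6, a zinc-finger transcription factor, by 2.21 ± 0.18, PLAUR, the urokinase receptor, by 1.94 ± 0.21 and SDC4, a cell-surface proteoglycan, by 1.63 ± 0.18. Other textbook targets did not pass. PTGS2, the inducible cyclooxygenase, differed by -0.06 ± 0.25 (adjusted p = 0.901), IRF1 by -0.18 ± 0.26 (adjusted p = 0.696) and VCAM1, an endothelial adhesion receptor, by 0.99 ± 0.36 (adjusted p = 0.185). PTGS2 and VCAM1 were dim in both groups. Their intensities were 63.6 and 77.3 for PTGS2 and 40.3 and 50.4 for VCAM1 in resistant cells. In parental cells they were 63.8 and 83.5 for PTGS2 and 30.3 and 17.1 for VCAM1. Whether such dim rows would show a change was not tested. Among the ligands, TNFSF13, which encodes APRIL, differed by 1.33 ± 0.21 and narrowly missed the threshold (adjusted p = 0.0519, and 0.000476 with the trended prior).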
